A study of Mus musculus with 8 samples.

Results

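The genes described here are 53 protein-coding heat shock and chaperone genes of the mouse, taken by symbol from the GENCODE M21 annotation: those whose symbols begin with Hsp, Dnaja or Dnajb, and the Cct2 to Cct8 family, with Hspg2 and Hspbap1 left out. They were followed among 141239 counted features, of which 53465 were Ensembl genes, in heart RNA from 2-week-old Lmna-/- mice of mixed strain. There were 5 libraries from Lmna-/- hearts treated with adeno-associated virus 9 that carried wild-type Lmna (AAV9 Lmna WT, replicates 1 to 5) and 3 from Lmna-/- hearts with no vector named in the labels (untreated, replicates 6, 7 and 8). All 8 libraries therefore carried the knockout, and neither wild-type hearts nor hearts given a control vector were analysed here, so effects of lamin A/C and of the vector itself cannot be told apart. The sources used here do not give sex, litter, vector dose or the cell types that the vector reached. Whether each library is a separate animal is not stated either, so a p-value reflects only how these libraries vary, and part of that may be technical.

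Chaperones bind unfolded or partly folded proteins and keep them from aggregating until they fold, move on or are degraded. Hsp70 proteins do this in cycles of ATP binding and hydrolysis, J-domain proteins (the Dnaj families) bring clients to them and start hydrolysis, and Hsp90 proteins act later, on kinases and steroid receptors among others. The small heat shock proteins hold clients without ATP and are abundant in striated muscle, where they bind filaments of the Z-disc and cytoskeleton. CCT is a ring-shaped chamber in the cytosol that folds actin and tubulin, and Hspd1 with its lid Hspe1 forms the corresponding chamber in the mitochondrial matrix. Heat shock factor 1 (Hsf1) drives many of these genes in stressed cells by binding heat shock elements, while the chaperones of the endoplasmic reticulum (ER) are driven by the unfolded protein response through ER stress elements.

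Promoters of 46 of the 53 genes were found in the RefSeq promoter table (GRCm38.p6, 250 bases before to 50 after a start site). A heat shock element, here 3 alternating GAA and TTC units with 2 bases of any kind between them, beginning with either unit so that both strands are covered, was present in 4 of these 46 genes (8.70%) and in 179 of all 27025 genes in the table (0.662%). The 4 were Hspd1, Hspe1, Hsph1 and Dnajb6. An ER stress element, CCAAT and CCACG with 9 bases of any kind between them, on either strand, was present in Hspa5 and Hsp90b1 (4.35%), against 37 of all 27025 genes (0.137%). The windows below were chosen after the values were seen. They belong to genes whose levels spread between untreated hearts (Hsph1, Hspa5, Hsp90b1) or differed between the groups (Hspe1). The Dnajb6 window is not shown, although its untreated hearts also spread (23.05, 16.12 and 12.89 CPM in replicates 6, 7 and 8). Hspa1a, Hspa1b and Dnajb1 had 0 heat shock elements by this definition, and Hsp90aa1 was not in the promoter table. A link between motif and spread was not tested. Capitals mark the matched motif. The Hspe1 window is chr1:55087898-55088197 on the plus strand, and its pair of overlapping matches, which also lies in the window of the divergent neighbour Hspd1, begins 89 bases before the start of Hspe1. The Hsph1 window is chr5:149636287-149636586 on the minus strand, with the match 36 bases after the start. For Hspa5 it is chr2:34771840-34772139 on the plus strand, with the match 65 bases before the start. For Hsp90b1 it is chr10:86705395-86705694 on the minus strand, with matches 212 and 107 bases before the start. A match is a string of letters and not evidence of binding.
Hspe1: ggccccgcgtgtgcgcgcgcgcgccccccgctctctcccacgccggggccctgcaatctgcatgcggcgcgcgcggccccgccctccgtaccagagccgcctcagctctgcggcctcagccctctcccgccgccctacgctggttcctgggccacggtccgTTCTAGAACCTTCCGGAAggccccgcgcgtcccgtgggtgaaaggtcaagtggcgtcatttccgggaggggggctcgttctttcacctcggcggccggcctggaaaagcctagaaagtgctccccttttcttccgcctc
Hsph1: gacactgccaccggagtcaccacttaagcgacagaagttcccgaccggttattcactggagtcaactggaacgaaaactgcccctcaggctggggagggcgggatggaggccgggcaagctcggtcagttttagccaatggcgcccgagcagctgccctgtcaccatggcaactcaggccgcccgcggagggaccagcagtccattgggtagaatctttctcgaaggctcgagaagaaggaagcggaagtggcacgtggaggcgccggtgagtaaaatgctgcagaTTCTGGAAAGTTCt
Hspa5: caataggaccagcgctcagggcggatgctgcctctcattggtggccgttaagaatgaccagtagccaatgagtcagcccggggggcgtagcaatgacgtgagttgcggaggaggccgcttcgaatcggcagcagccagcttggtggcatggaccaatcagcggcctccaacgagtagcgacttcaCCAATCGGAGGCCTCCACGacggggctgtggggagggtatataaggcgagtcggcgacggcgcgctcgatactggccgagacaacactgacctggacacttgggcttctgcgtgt
Hsp90b1: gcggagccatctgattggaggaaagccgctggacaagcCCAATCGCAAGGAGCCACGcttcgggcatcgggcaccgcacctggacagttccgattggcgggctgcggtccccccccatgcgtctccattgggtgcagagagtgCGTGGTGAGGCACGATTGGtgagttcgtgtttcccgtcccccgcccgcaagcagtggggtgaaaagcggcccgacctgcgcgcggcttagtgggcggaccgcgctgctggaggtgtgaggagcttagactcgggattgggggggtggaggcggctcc

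The libraries held 21576949 to 26492443 reads on features in the AAV9 Lmna WT group and 21439956 to 24021970 in the untreated group. Lmna itself, counted over the whole gene, lay between 227 and 747 CPM (counts per 1e6 counts of the scaled library size) in AAV9 Lmna WT hearts, against 32.3 to 68.7 CPM in untreated hearts (adjusted p = 0.00486 by edgeR). Untreated libraries also stood apart in measures taken over the whole library, and with this design these cannot be told apart from treatment. Of reads on features, outside them or ambiguous, 12.05 to 12.85% lay outside in AAV9 Lmna WT libraries, against 16.75 to 24.69% in untreated ones. Alignments that were not unique are not part of this total. The slope of log2 CPM on log2 exon length ran between -0.0836 and -0.0472 in AAV9 Lmna WT libraries, against 0.0533 to 0.157 in untreated ones, so long genes took a larger share in untreated hearts. Untreated replicate 8 had 978 CPM summed over atrial muscle markers, against 59.1 to 177 CPM in AAV9 Lmna WT libraries. Pairs of libraries differed beyond sampling noise in both groups, by a median dispersion index of 3.57 to 8.50 within AAV9 Lmna WT and 13.5 to 31.4 within untreated hearts, where 1 is sampling noise.

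Of the 53 genes, 46 passed the filter on low counts. The 7 that did not were Cct6b, Cct8l1, Dnajb3, Dnajb7, Dnajb8, Hspb1 and Hspb9; none exceeded 0.6355 CPM in any library, and Dnajb8 and Hspb1 were listed at 0 in all 8. With edgeR's quasi-likelihood test, adjusted by Benjamini-Hochberg over all 26717 features, 16 of the 46 were higher in AAV9 Lmna WT hearts at an adjusted p under 0.05 (34.8%), 0 were lower and 30 did not pass; 0 were lower at an unadjusted p under 0.05 or with DESeq2 as well. The background was 25.7% of all features called in either direction and 10.6% called higher. Among protein-coding genes alone it was 18.4% higher and 6.07% lower, and that is the closer comparison. The median log2 fold change, AAV9 Lmna WT over untreated, was 0.31 for the 46 genes, 0.21 for 13785 protein-coding genes and -0.03 for all features. In 13 of the 46, every AAV9 Lmna WT library lay above every untreated library, and in 0 every one lay below, against 23.1% and 6.61% of protein-coding genes. In these bulk samples, fewer cells of a type and less RNA per cell cannot be told apart.

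Those counts depended on how libraries were scaled and on which untreated hearts were used. Scaling on Ensembl features alone moved the median of the same features by -0.19 and left 1 gene higher and 0 lower, against 4.49% and 8.73% of protein-coding genes. Correcting each library for exon length and GC content moved it by -0.24 and left 1 higher and 2 lower (Hsp90ab1 and Hspb7), against 3.03% and 5.39% of protein-coding genes. With untreated replicates 6 and 8 left out, 1 gene was higher and 4 were lower of 48 tested, against 7.42% and 3.85% of protein-coding genes, and the lone untreated library was then assumed to vary like the other group. Without untreated replicate 7, 28 of 46 genes were higher, which is 60.9% against 29.9% of protein-coding genes. Without untreated replicate 8, 5 were higher and 2 lower, against 13.7% and 4.55% of protein-coding genes, and without untreated replicate 6, 10 were higher, against 13.1%. Leaving out AAV9 Lmna WT replicate 2 left 7 genes higher, which is 15.2% against 10.4% of protein-coding genes, and leaving out replicate 4 left 8, which is 17.4% against 11.7%. Leaving out replicate 3 left 6 of 46 higher, against 1377 of 13713 protein-coding genes (5.77% of all features). Other tools and filters on all 8 libraries gave 16 with RLE size factors (20.5% of protein-coding genes), 16 with limma-voom (19.6%), 19 with DESeq2 (24.9%), 23 with no filter (17.9%) and 10 with a minimum of 1 CPM in 3 libraries (16.2%). Dnaja3 was called higher in each of the fits that left out a library, in both rescaled fits and without replicates 6 and 8.

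**Figure D1:**
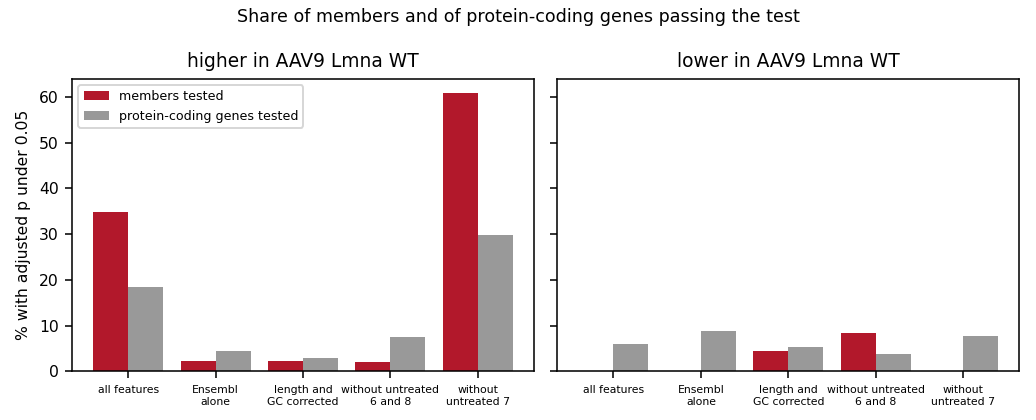
Share of tested members (red) and of tested protein-coding genes (grey) with an adjusted p under 0.05, in percent, higher in AAV9 Lmna WT hearts on the left and lower on the right, for 5 ways of fitting the same counts. In the left panel members lie above the protein-coding genes with all features (34.8% against 18.4%) and without untreated replicate 7 (60.9% against 29.9%), and below it in the other 3 fits.

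The 4 mitochondrial chaperone genes among the members were higher in AAV9 Lmna WT hearts. All 4 passed the test, with a median log2 fold change of 0.62, and in all 4 the groups did not overlap. Among protein-coding genes, 18.4% were called higher and 23.1% had every AAV9 Lmna WT library above every untreated library. These shares are also the background for the groups below. Under Ensembl scaling, under the length and GC correction, and without untreated replicates 6 and 8, 1 of the 4 still passed and all 4 kept a positive sign.

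Dnaja3, the J-domain partner of the matrix Hsp70 (chr16:4639989-4707695, plus strand, GRCm38), had 186, 207, 215, 204 and 203 CPM in AAV9 Lmna WT hearts, against 98.3, 140 and 127 CPM in untreated hearts. Every AAV9 Lmna WT library was above every untreated one. The log2 fold change was 0.74 (SE 0.12, adjusted p = 0.00361 by edgeR), 0.55 on Ensembl scaling (adjusted p = 0.00595) and 0.46 with the length and GC correction (adjusted p = 0.0123). About 8.0% of its exon length overlaps Coro7 and Vasn, and counting without strand drops reads there.

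Hspa9, or mortalin, the matrix Hsp70 that pulls imported proteins across the inner membrane, was the most abundant mitochondrial member per length. It had 633.5, 707.8, 702.3, 710.5 and 685.1 CPM in AAV9 Lmna WT hearts, against 485.6, 548.3 and 491.7 CPM in untreated hearts. The groups did not overlap, and the log2 fold change was 0.44 (SE 0.09, adjusted p = 0.0075 by edgeR).

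Hspd1 and Hspe1, which form the folding chamber and its lid, are transcribed away from each other from the shared region printed above. Hspd1 (chr1:55077835-55088243, minus strand) had 116.1, 125.6, 129.6, 123.9 and 130.0 CPM in AAV9 Lmna WT hearts, against 47.29, 100.1 and 94.19 CPM in untreated hearts. Hspe1 (chr1:55088132-55091307, plus strand) had 42.0, 42.32, 42.64, 43.54 and 48.23 CPM in AAV9 Lmna WT hearts, against 21.2, 36.12 and 29.32 CPM in untreated hearts. For Hspd1 untreated replicate 6 was far below the other untreated hearts, and for Hspe1 the 3 untreated values were about evenly spaced with replicate 6 the lowest. The log2 fold changes were 0.63 for Hspd1 (SE 0.20, adjusted p = 0.0434) and 0.60 for Hspe1 (SE 0.15, adjusted p = 0.0169 by edgeR). Hspe1 passed in all 8 fits that left out 1 library and Hspd1 in 2. Of 50-base windows of the Hspd1 transcripts, 44.8% occur in transcripts of other genes, so its counts are uncertain; for Hspe1 the share was 8.20%.

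The CCT chamber genes were also higher in AAV9 Lmna WT hearts. Of 8 members, the 6 that were tested (Cct2, Cct3, Cct4, Cct5, Cct7 and Cct8) all passed, with log2 fold changes between 0.32 and 0.56 and a median of 0.40. Of the 8 fits without 1 library, Cct5 passed in 8, Cct4 in 7, Cct2 in 5 and Cct3 in 3. Cct7 and Cct8 each passed in 1 of those fits, so not all 6 calls were equally stable. With Ensembl scaling, with the length and GC correction, and without untreated replicates 6 and 8, 0 of them passed. Tcp1, the alpha subunit and not a member by symbol, had a log2 fold change of 0.39 (adjusted p = 0.013 by edgeR). Cct6a, left out because GENCODE M21 gives it a noncoding biotype and chosen after its values were seen, had one of 0.38 (adjusted p = 0.0842).

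Cct5 had 190.3, 204.3, 206.9, 189.0 and 190.1 CPM in AAV9 Lmna WT hearts, against 106.6, 167.3 and 142.4 CPM in untreated hearts. The groups did not overlap, and the log2 fold change was 0.50 (SE 0.13, adjusted p = 0.0194 by edgeR). Cct4 had 165.8, 165.6, 168.9, 164.2 and 153.1 CPM in AAV9 Lmna WT hearts, against 111.4, 146.3 and 114.9 CPM in untreated hearts, again with no overlap (log2 fold change 0.40, adjusted p = 0.0203 by edgeR). Cct2, the most abundant tested CCT gene per length, had 178.8, 186.2, 189.4, 179.8 and 173.4 CPM in AAV9 Lmna WT hearts, against 136.7, 160.3 and 139.2 CPM in untreated hearts. It did not overlap either, and its log2 fold change was 0.32 (adjusted p = 0.024 by edgeR) but -0.05 with the length and GC correction. Cct3 had 98.12, 128.3, 125.6, 125.5 and 112.8 CPM in AAV9 Lmna WT hearts, against 62.18, 102.9 and 74.63 CPM in untreated hearts. Its groups overlapped at untreated replicate 7, and its log2 fold change was 0.56 (adjusted p = 0.0246 by edgeR). The groups of Cct8 also overlapped, and those of Cct7 did not. In all 6 CCT genes replicate 7 was the highest and replicate 6 the lowest of the untreated hearts.

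**Figure D2:**
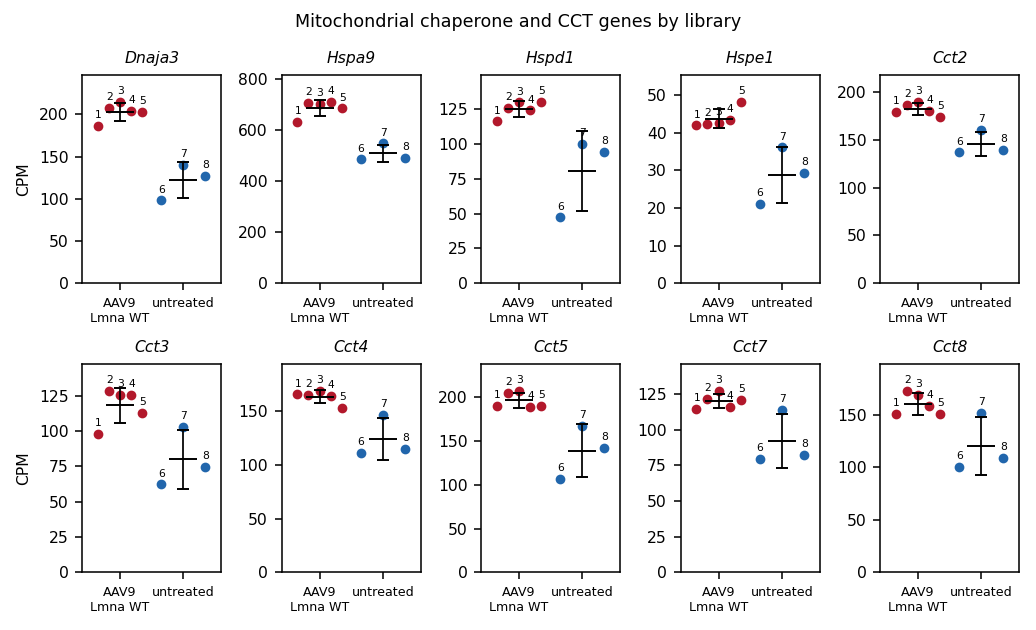
CPM of the 4 mitochondrial chaperone genes and the 6 tested CCT genes in each library (points, numbered by replicate), with the mean and SD of each group (black), AAV9 Lmna WT left of untreated. Except for Hspa9, AAV9 Lmna WT libraries lie closer together than untreated ones. For Hspa9 the groups spread alike, with an SD of 31.94 CPM in AAV9 Lmna WT and 34.58 CPM in untreated hearts. In each of the 10 genes replicate 7 is the highest untreated library, at 140 CPM for Dnaja3 and 167.3 CPM for Cct5.

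Small heat shock proteins behaved less uniformly. Of 7 members 5 were tested, and 2 were higher, Hspb2 and Hspb8. Hspb8, which works with Bag3 in clearing damaged filament proteins, had 480.2, 538.5, 621.4, 579.4 and 551.3 CPM in AAV9 Lmna WT hearts, against 367.3, 482.3 and 337.2 CPM in untreated hearts. Only untreated replicate 7 reached the AAV9 Lmna WT range, and the log2 fold change was 0.49 (SE 0.13, adjusted p = 0.0213 by edgeR). It was 0.29 on Ensembl scaling (adjusted p = 0.145) and 0.09 with the length and GC correction (adjusted p = 0.667). Hspb2, found mainly in heart and skeletal muscle, had 34.76, 31.71, 34.2, 34.74 and 33.47 CPM in AAV9 Lmna WT hearts, against 25.59, 25.37 and 26.83 CPM in untreated hearts. The groups did not overlap, and the 3 untreated hearts lay close together. The log2 fold change was 0.38 (SE 0.09, adjusted p = 0.0136 by edgeR), but -0.09 with the length and GC correction. Hspb2 spans 834 exonic bases, of which 30.2% overlap its neighbour Cryab, so reads there cannot be assigned.

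The small heat shock genes that did not pass were Hspb3, Hspb6 and Hspb7. Hspb7, a filamin-binding protein of heart muscle, was the most abundant of all 53 genes per length, at 358 CPM per kb of exon in AAV9 Lmna WT hearts and 419 in untreated hearts. It had 997.5, 1056, 929, 955.1 and 1025 CPM in AAV9 Lmna WT hearts, against 1267, 1248 and 961.5 CPM in untreated hearts. The groups overlapped at untreated replicate 8, and the log2 fold change was -0.22 (adjusted p = 0.136 by edgeR), or -0.55 with the length and GC correction (adjusted p = 0.0316). Hspb6 had a log2 fold change of -0.02 and Hspb3 one of 0.55 (adjusted p = 0.105 by edgeR).

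Among the 13 Hsp70 genes outside the mitochondrion, 1 passed, Hspa14, a ribosome-associated member. It had 22.05, 25.24, 24.43, 23.66 and 22.42 CPM in AAV9 Lmna WT hearts, against 14.36, 20.08 and 19.38 CPM in untreated hearts. The groups did not overlap, and the log2 fold change was 0.39 (SE 0.13, adjusted p = 0.0447 by edgeR); it lost the call in 7 of the 8 fits without 1 library. DESeq2 called 4 of the 13 higher, adding Hspa2, Hspa12a and Hspa12b. The other genes were Hspa1a, Hspa1b, Hspa1l, Hspa2, Hspa4, Hspa4l, Hspa5, Hspa8, Hspa12a, Hspa12b, Hspa13 and Hsph1, with log2 fold changes between -0.32 and 0.82. The largest, 0.82 for Hspa12a, had an SE of 0.31 and an adjusted p of 0.076 by edgeR.

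For Hspa1a and Hspa1b the untreated hearts spread more widely than the AAV9 Lmna WT hearts. Hspa1a, the classical inducible Hsp70, had 1.028, 2.956, 2.893, 4.423 and 1.313 CPM in AAV9 Lmna WT hearts, against 1.066, 7.718 and 0.6809 CPM in untreated hearts. Its near copy Hspa1b had 1.215, 3.297, 2.466, 2.963 and 1.223 CPM in AAV9 Lmna WT hearts, against 1.928, 5.544 and 0.5901 CPM in untreated hearts. For both, untreated replicate 7 was the highest of all 8 libraries and replicate 8 the lowest. Neither passed (log2 fold changes -0.32 and -0.26, adjusted p = 0.778 and 0.763 by edgeR). Of their 50-base windows, 66.3% and 62.3% occur in other genes, so reads may be split or dropped between them.

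Hsph1, a nucleotide exchange factor of Hsp70, and Hsp90aa1, the inducible Hsp90, also had their highest value in untreated replicate 7; they were picked after their values were seen. Hsph1 had 16.63, 23.95, 25.33, 25.03 and 18.75 CPM in AAV9 Lmna WT hearts, against 11.53, 50.06 and 13.98 CPM in untreated hearts. Hsp90aa1 had 43.26, 40.73, 45.01, 48.27 and 39.85 CPM in AAV9 Lmna WT hearts, against 26.66, 62.64 and 24.51 CPM in untreated hearts. In both genes the AAV9 Lmna WT libraries lay between untreated replicate 7 and the other untreated hearts. Of 50-base windows of Hsp90aa1, 58.5% occur in transcripts of other genes, so its counts are uncertain. For Hsph1 the share was 0.00%. The log2 fold change of Hsph1 was -0.20 (adjusted p = 0.762 by edgeR), and it was 0.80 without untreated replicate 7 (adjusted p = 0.00811) and -1.18 without replicates 6 and 8 (adjusted p = 0.00649). For Hsp90aa1 it was 0.19 (adjusted p = 0.621 by edgeR), 0.78 without replicate 7 (adjusted p = 0.000965) and -0.52 without replicates 6 and 8 (adjusted p = 0.0193). The constitutive Hsp90ab1, at 319 CPM per kb of exon in AAV9 Lmna WT and 341 in untreated hearts, had 944.1, 937.2, 959.4, 933.3 and 1004 CPM in AAV9 Lmna WT hearts, against 920, 1259 and 889.3 CPM in untreated hearts. Its groups overlapped and its log2 fold change was -0.10 (adjusted p = 0.543 by edgeR), or -0.44 with the length and GC correction (adjusted p = 0.0362). Of the 3 Hsp90 genes 0 passed with edgeR, and 0 did so at an unadjusted p under 0.05 or with DESeq2.

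**Figure D3:**
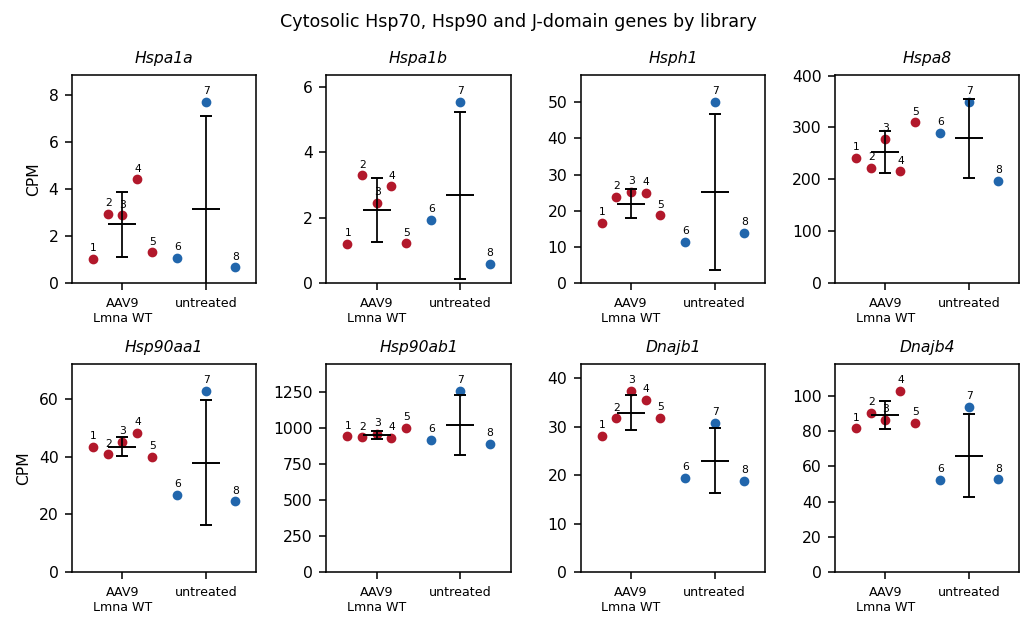
CPM of 8 cytosolic Hsp70, Hsp90 and J-domain genes in each library (points, numbered by replicate), with the mean and SD of each group (black), AAV9 Lmna WT left of untreated; the lower bar of Hspa1a in untreated hearts is cut at 0. Untreated replicate 7 is the highest untreated library in every panel, at 50.06 CPM for Hsph1 against 11.53 and 13.98 CPM in the other untreated libraries.

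Among the 7 members of the ER, Hspa5 and Hsp90b1 had untreated replicate 7 above every AAV9 Lmna WT library and the other untreated hearts below all of them. Hspa5 (BiP), the ER Hsp70, had 470.4, 442.7, 427.8, 462.6 and 470.7 CPM in AAV9 Lmna WT hearts, against 380.3, 500.9 and 333.2 CPM in untreated hearts. Its log2 fold change was 0.17 (adjusted p = 0.318 by edgeR). Hsp90b1, the ER Hsp90, had 219.6, 203.8, 197.6, 207.3 and 205.7 CPM in AAV9 Lmna WT hearts, against 122.8, 253.9 and 161.1 CPM in untreated hearts (log2 fold change 0.21, adjusted p = 0.423 by edgeR). The other ER members (Hspa13, Dnajb9, Dnajb11, Dnajb12 and Dnajb14) did not have this order. Replicate 7 was still the highest untreated heart for Hspa13, Dnajb9, Dnajb11 and Dnajb14. Dnajb12 was highest among untreated hearts in replicate 6, with 36.13 CPM, against 34.28 CPM in replicate 7 and 32.46 CPM in replicate 8. Of the 7, 1 passed.

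That gene was Dnajb11, a BiP partner. It had 65.55, 69.42, 65.36, 67.07 and 61.81 CPM in AAV9 Lmna WT hearts, against 44.38, 61.32 and 46.26 CPM in untreated hearts, with no overlap (log2 fold change 0.38, adjusted p = 0.0345 by edgeR). With the length and GC correction it was 0.06 (adjusted p = 0.733), and the call was lost in 6 of the 8 fits without 1 library. Of the 13 tested J-domain genes outside the mitochondrion, 3 passed. Dnaja2, a cytosolic partner of Hspa8 and the most abundant J-domain gene per length, had 298.2, 310.8, 312, 310 and 302.6 CPM in AAV9 Lmna WT hearts, against 259.9, 264.2 and 233.5 CPM in untreated hearts. Its log2 fold change was 0.28 (adjusted p = 0.0305 by edgeR) but -0.05 with the length and GC correction. Dnajb1 had 28.13, 31.71, 37.33, 35.43 and 31.79 CPM in AAV9 Lmna WT hearts, against 19.48, 30.75 and 18.84 CPM in untreated hearts, overlapping at replicate 7 (log2 fold change 0.51, adjusted p = 0.0442 by edgeR). This call, too, was lost in 6 of the 8 fits without 1 library, and the value was 0.21 with the length and GC correction (adjusted p = 0.405). The 10 that did not pass were Dnaja1, Dnaja4, Dnajb2, Dnajb4, Dnajb5, Dnajb6, Dnajb9, Dnajb12, Dnajb13 and Dnajb14, 5 of them positive and 5 negative, between -0.43 (Dnajb5) and 0.43 (Dnajb4). Hspb11 and Hspbp1, which carry the prefix but belong to none of these families, had log2 fold changes of 0.59 and 0.16 and did not pass.

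**Figure D4:**
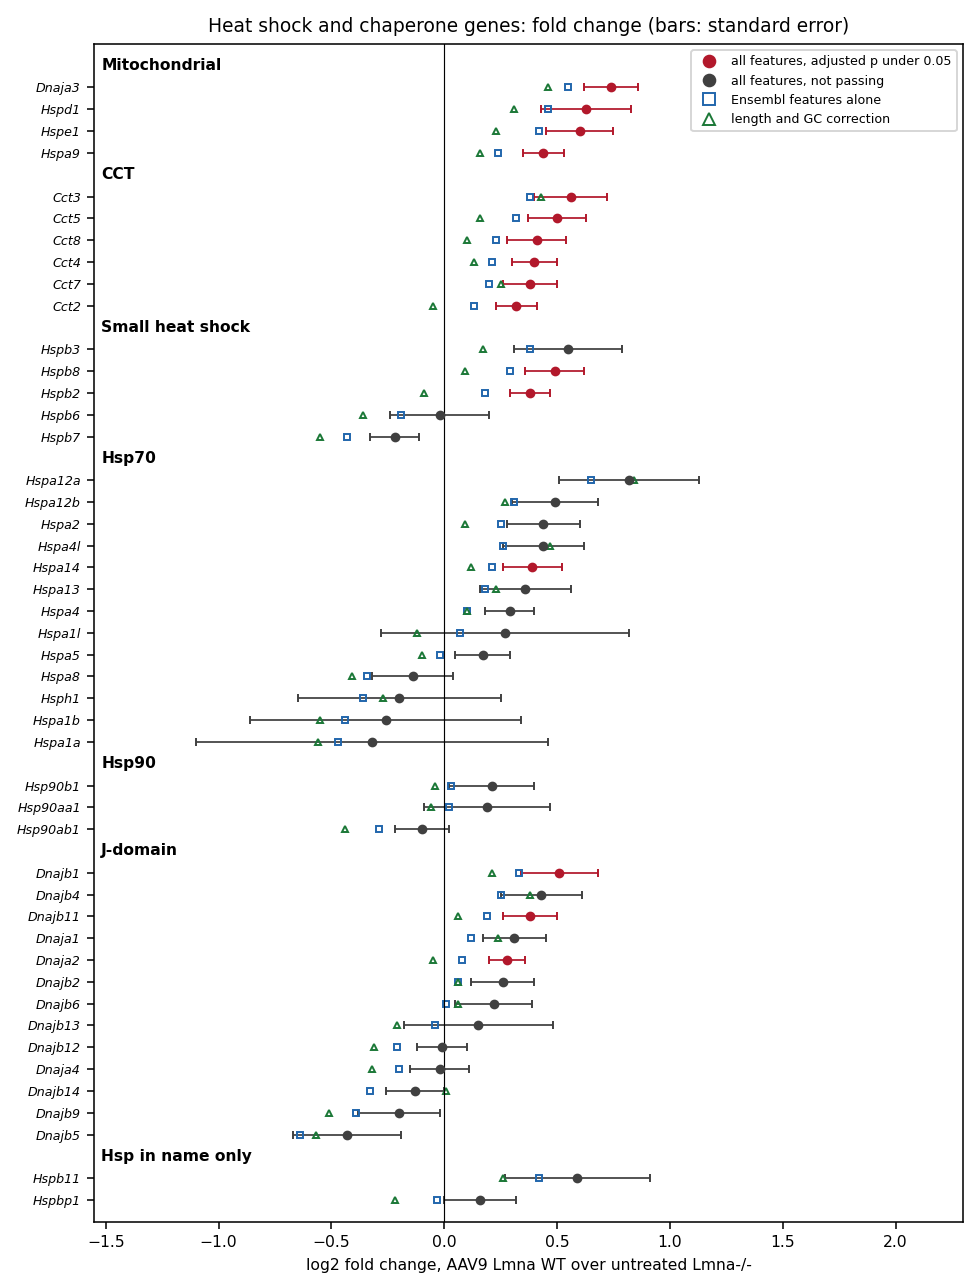
Log2 fold change, AAV9 Lmna WT over untreated, of the 46 tested genes by group; circles with SE bars are the fit on all features (red where the adjusted p is under 0.05), squares the fit on Ensembl features alone and triangles the fit with length and GC correction. The squares and triangles lie left of most circles, and in the small heat shock, Hsp70, Hsp90 and J-domain groups many fall on the negative side.

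Untreated replicate 7 was the highest of the 3 untreated hearts in 39 of the 46 tested genes (84.8%) and in 15 of the 16 called genes, against 44.2% of protein-coding genes. Replicate 6 was the lowest in 29 (63.0%), and the share of protein-coding genes lowest in it was not counted. The called gene that was not highest in replicate 7 was Hspb2. Summed macrophage markers followed a like order: 338 to 377 CPM in AAV9 Lmna WT libraries, against 116 to 388 CPM in untreated ones with replicate 7 the highest. The order was not particular to macrophages. In untreated replicates 6, 7 and 8, summed lymphocyte markers, at low levels, had 1.353, 4.648 and 2.951 CPM. Summed erythroid markers had 446.4, 959.5 and 825.4 CPM. Replicate 6 was the lowest of all 8 libraries for summed fibroblast markers, with 2196 to 2930 CPM in AAV9 Lmna WT libraries, against 1132 CPM in replicate 6, and for endothelial markers, with 1324 to 1648 CPM in AAV9 Lmna WT libraries, against 935 CPM in replicate 6. Untreated replicate 8 was the highest of all 8 libraries for both, at 3252 CPM for fibroblast and 1677 CPM for endothelial markers. Replicate 7 was the lowest for ventricular and general cardiomyocyte markers, with 58270 to 70490 CPM in AAV9 Lmna WT libraries, against 47370 CPM in replicate 7. None of the 6 macrophage, 6 lymphocyte, 6 erythroid, 6 fibroblast, 6 endothelial or 8 cardiomyocyte markers was at 0 in all 8 libraries. The part of these cell types in the results was not tested.

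**Figure D5:**
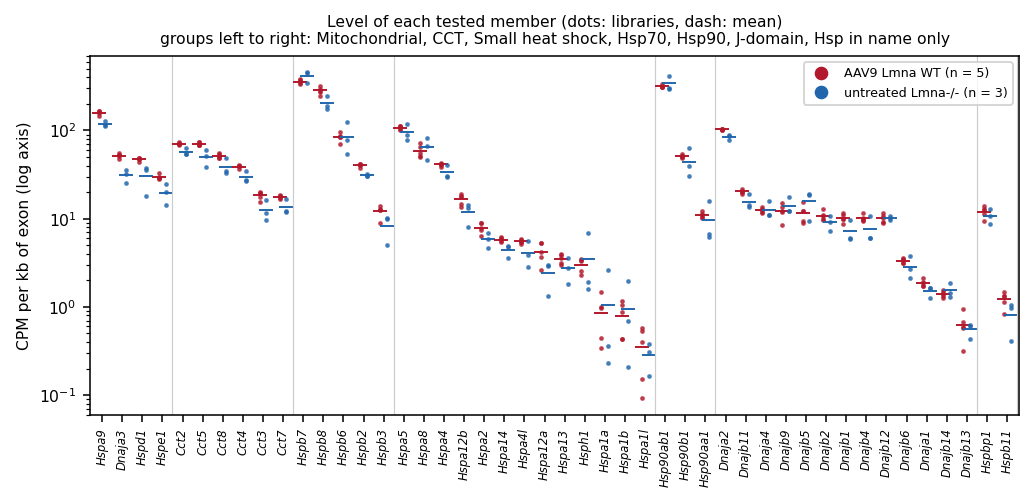
CPM per kb of exon of each tested gene on a log axis, by group and in order of level; dots are libraries and dashes group means, AAV9 Lmna WT (red) left of untreated (blue). Hspb7 and Hsp90ab1 are among the highest, at 358 and 319 CPM per kb in AAV9 Lmna WT hearts, and Hspa1a, Hspa1b and Hspa1l the lowest of the Hsp70 genes.

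Partner genes outside the family were counted in lists, beside 18.4% of protein-coding genes called higher and 6.07% called lower. Unless said otherwise, the called genes named from a list are those with its smallest p. Of 3 heat shock factors tested, 0 passed; Hsf1 had 36.16, 35.96, 39.65, 36.63 and 38.67 CPM in AAV9 Lmna WT hearts, against 29.5, 36.8 and 31.7 CPM in untreated hearts (adjusted p = 0.164 by edgeR). The count was also 0 at an unadjusted p under 0.05 and with DESeq2. Of 11 partners of the mitochondrial chaperones, 8 were higher and 0 lower, among them the matrix proteases Clpp (log2 fold change 0.71, adjusted p = 0.0026) and Lonp1 (0.68, adjusted p = 0.00285 by edgeR). With Ensembl scaling 7 of the 11 passed, and 3 with the length and GC correction. Of 10 CCT and prefoldin partners 5 were higher, among them the prefoldin subunits Pfdn6 (0.77) and Pfdn1 (0.57); 2 passed with Ensembl scaling and 0 with the length and GC correction. Of 26 Hsp70 and Hsp90 cochaperones 7 were higher, among them Ppid (0.67, adjusted p = 0.00389) and Ttc4 (0.49, adjusted p = 0.00606 by edgeR). The largest fold among them was that of Fkbp4, named after its values were seen (0.84, adjusted p = 0.00807 by edgeR). Fkbp4 and Ppid each also passed in both rescaled fits. In this list 1 was lower, Fkbp5 (-1.74, adjusted p = 0.0361 by edgeR), with 15.42 to 50.09 CPM in AAV9 Lmna WT hearts, against 177.3, 51.21 and 61.78 CPM in untreated hearts. Its call was lost without untreated replicate 6 and without AAV9 Lmna WT replicate 2, 3, 4 or 5. Of the 26, 2 were higher and 2 lower with Ensembl scaling, and 2 higher and 1 lower with the length and GC correction. The Hspb8 partner Bag3 had a log2 fold change of 0.04 (adjusted p = 0.855). Of 20 tested J-domain genes of the C class 6 were higher, among them Dnajc8 (0.47) and Dnajc4 (0.51); with Ensembl scaling 0 were higher and 1 lower, and with the length and GC correction 1 was higher. In the ER folding and unfolded protein response list 2 of 23 were higher, among them Dnajc10 (0.38), and 1 lower, the stress sensor Ern1 (-0.39, adjusted p = 0.0342 by edgeR); with Ensembl scaling 0 were higher and 1 lower, and with the length and GC correction 0 passed. Hyou1, an ER exchange factor, had 57.8, 61.3, 57.4, 64.9 and 66.2 CPM in AAV9 Lmna WT hearts, against 42.7, 93.8 and 48.6 CPM in untreated hearts, with replicate 7 again the highest.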

How the data were processed

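Mouse heart RNA, extracted with a miRNeasy kit and prepared with a TruSeq kit per the labels, was sequenced as 8 libraries. The authors deposited raw, unnormalized read counts for each feature, made without strand over Ensembl and NONCODE version 5 features, per the file names and identifiers. Per the submitters' processing notes, the builds were GRCm38 and mm10 and the tools included HTSeq, TopHat2, limma and edgeR, with no version given. The 5 summary lines of each table entered neither library sizes nor tests. Of reads on features, outside them or ambiguous, 12.05 to 24.69% lay outside and 21.03 to 26.37% were ambiguous. The line for alignments that were not unique, left out of that total, held 31188497 to 40285518 per library.

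Symbols, coordinates and exon lengths came from GENCODE M21 (GRCm38). Overlaps with NONCODE features were not checked, and reads of a gene and of an antisense partner cannot be told apart. Features were filtered with filterByExpr, scaled by TMM over Ensembl and NONCODE features together and tested with edgeR 4.0.16 (robust quasi-likelihood, R 4.3.3), with all 8 libraries and 1 group term, and p-values were adjusted by Benjamini-Hochberg across 26717 features, with calls at 0.05. CPM is the count divided by the TMM-scaled library size, times 1e6. A fold change is AAV9 Lmna WT over untreated.

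The alternatives were no filter, limma-voom (limma 3.58.1), DESeq2 1.42.0, RLE size factors, at least 1 CPM in 3 libraries, Ensembl features alone, a loess correction (span 0.5) for exon length and GC content, untreated replicates 6 and 8 left out, and each library left out. The members and lists were chosen with earlier results of these data known, and several lists follow an earlier analysis of them. The rule for named genes was every member by name, values in each library for called members (at most the 4 smallest p per group), the most abundant member per group, Hspa1a and Hspa1b, then Lmna, Hsf1, Bag3, Hyou1, Tcp1 and up to 2 called genes per partner list. Other genes named were chosen after their values were seen. Tested on simulated counts for the 26717 features, the fit recovered 88.7% of 71 genes changed 4-fold, 40.5% of 74 changed 2-fold and 18.2% of 55 changed 1.5-fold, with 5 of 108 calls on unchanged features. These simulated counts had few changed features, the same dispersion in both groups and no length trend between groups. The real libraries differed in all of these, so the rates need not hold for them.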

Additional observations from a re-analysis of the deposited data

Results flagged for a closer look

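Of 46 members checked in the 5 AAV9 Lmna WT libraries, 1 had a library far from the others: Hspe1 in AAV9 Lmna WT replicate 5, at 48.23 CPM, where the other 4 lay between 42.0 and 43.54 CPM. The gap was 0.753 of the range of the group, above the critical value of 0.71. About 1 in 20 groups is expected to pass this by chance. Without that library Hspe1 still passed in edgeR's quasi-likelihood test. The group of 3 untreated libraries is too small for this check.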

How the results depend on the processing

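No paired analysis was possible because the groups share no replicate numbers (1 to 5 in AAV9 Lmna WT, 6 to 8 in untreated hearts). Members called higher numbered 16 with TMM, RLE or limma-voom, 19 with DESeq2, 23 with no filter, 10 with at least 1 CPM in 3 libraries, and 1 with Ensembl features alone, with the length and GC correction, or without untreated replicates 6 and 8. Leaving out 1 library gave 5 to 28 higher and 0 to 2 lower. Members called lower numbered 2 with the length and GC correction and 4 without untreated replicates 6 and 8. For small heat shock genes the count of higher calls was 0 in those 3 fits and 1 to 3 with 1 library left out. Hsp70 genes called higher numbered 4 with DESeq2, 6 with no filter, 0 with the 1 CPM minimum, 0 in those 3 fits, and 0 to 8 with 1 library left out. J-domain genes called higher numbered 1 with the 1 CPM minimum, 0 in those 3 fits and 0 to 5 with 1 library left out. Hsp90 genes ranged from 0 to 2 and CCT genes from 1 to 6 with 1 library left out; CCT genes called were 0, and mitochondrial genes 1, in those 3 fits. Signs reversed for Cct2 (-0.05), Dnaja2 (-0.05) and Hspb2 (-0.09) with the length and GC correction, for Hsph1 (0.80) without untreated replicate 7, where the fits without 1 library ran between -0.54 and 0.80, and for Hsp90aa1 (-0.52) without untreated replicates 6 and 8. The cause of these differences was not tested. Among members uncalled in both fits, 0 to 9 changed sign per setting. With 3 untreated hearts, 1 library can decide a call; Dnaja3, Hspa9, Hspe1, Cct5 and Hspb2 passed whichever library was left out.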

Other observations

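Calr and Pdia4, genes of ER folding outside the family chosen after their values were seen, were highest in untreated replicate 7, as Hspa5 was. Calr, an ER lectin chaperone, had 357 to 416 CPM in AAV9 Lmna WT hearts, against 126, 457 and 246 CPM in untreated replicates 6, 7 and 8. Pdia4, a protein disulphide isomerase, had 53.4 to 64.9 CPM in AAV9 Lmna WT hearts, against 17.5, 68.2 and 41.4 CPM in untreated hearts. Of the 23 genes in the ER list, 15 were higher in AAV9 Lmna WT hearts in the fit without untreated replicate 7, and 2 in the fit with all libraries; among protein-coding genes the shares were 29.9% and 18.4%.

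Hspb1 was listed at 0 in all 8 libraries, although it is a heat shock gene usually detected in heart. Of its 50-base windows, 51.6% occur in transcripts of other genes, Hsp25-ps1 and Gm9817. Hsp25-ps1 itself had 0.0429 to 0.467 CPM in AAV9 Lmna WT and 0.205 to 0.363 CPM in untreated hearts. What its zero reflects was not tested.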
